A study of Mus musculus with 6 samples.

Results

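Among the R-sRNAs (small RNAs held by Argonaute in the RNA-induced silencing complex, RISC) of mouse brain, those read from small nuclear RNAs (snRNAs) and small nucleolar RNAs (snoRNAs) are described here. A read sequence was taken where the deposited annotation put it in the sn/snoRNA class and gave it no miRNA label. This held for 583 of the 143934 read sequences, under 33 source names. Another 527 sequences of the class carry a miRNA label and were left out except where stated. The small RNAs came from cortex and hippocampus of BL6 mice (C57BL/6J, male according to the methods), 3 mice of 2 months (2M) and 3 of 18 months (18M), with no treatment or transgene. Ago1-4 were pulled down with a GW182 peptide and RNA of 19 to 35 nt was cut from a gel and sequenced (Ago-RP-Seq). The study asked how the content of the RISC in brain cells differs between young and old mice. Since whole tissue was lysed, fewer cells of a type and fewer loaded fragments per cell cannot be told apart.

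snRNAs and snoRNAs are short nuclear RNAs that work in ribonucleoprotein particles. U1, U2, U4, U5 and U6 snRNA build the spliceosome, U7 is needed for the 3′ ends of histone mRNAs, and the C/D box snoRNA U3 acts in the cutting of pre-ribosomal RNA. Other C/D box snoRNAs guide 2′-O-methylation, H/ACA box snoRNAs guide pseudouridylation, and scaRNAs do the same work on snRNAs in Cajal bodies. An H/ACA snoRNA folds into a pair of hairpins, and some such hairpins are known to be cut by Dicer into miRNA-like RNAs. A small RNA in the RISC finds its targets mainly through its seed, here the 6mer at read positions 2 to 7.

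The reads that carry most of the signal are shown first, 5′ to 3′, as DNA letters from the deposited table, with the 6mer seed in capitals. Those of U1 are shown because they share a 3′ end and differ in their 5′ end, so that each has another seed:
U1, 18 nt: cGTTCGCgctctcccctg
U1, 17 nt: gTTCGCGctctcccctg
U1, 21 nt: cTGCGTTcgcgctctcccctg
U1, 29 nt: gTGGGGGactgcgttcgcgctctcccctg
U4, 18 nt: cAGTCTCtacggagactg
U4, 24 nt: tTTTGACagtctctacggagactg
Those of H/ACA snoRNAs share a 5′ end and differ in their 3′ end, so that they keep 1 seed, and for Snora41, Snora7a and Snora30 they come from both arms of a hairpin:
Snora41, 3′ arm, 21 nt: gGAGGATtatgtgtgacagac
Snora41, 3′ arm, 22 nt: gGAGGATtatgtgtgacagaca
Snora41, 3′ arm with a last base that is not in the model: gGAGGATtatgtgtgacagact
Snora41, 5′ arm: aCTGTTAcacaatttaatgcct
Snora7a, 3′ arm: tGATTGGaagacactctgcaaca
Snora7a, 5′ arm: tAGCAGAggtacccattccatt
Snora30, 3′ arm: cAGCTGTtactcaagggaacag
Snora30, 5′ arm: aACCCTTgattacatccttgcc
Snora44: aTGGAGAgactttgacagctca
The highest reads of U3 snoRNA come from its 3′ end and from an inner stretch:
U3, 3′ end: gGAGGGAacgcagtctgagtgga
U3, inner: cCACGAGgacgagacgtagcg

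Names were matched to GENCODE M21 genes on GRCm38 through exact matches of the reads where there were any, which held for 29 of the 33 sources. No read of U4 or of the Mir3068 snoRNA matched a model exactly. U1 reads match Rnu1a1 at chr11:87422867-87423030 (plus strand, inside an intron of Tex14), but the highest U1 read also matches 15 other U1-type models, so the gene copy is not known. Snora41 lies at chr1:63179004-63179135 (plus strand) in an intron of Eef1b2, a translation elongation factor gene, and Snora30 at chr7:127527874-127528003 (plus strand) in an intron of Srcap. Snora7a lies at chr6:115807975-115808114 (minus strand) within Rpl32, a ribosomal protein gene, and Snora44 at chr4:132309941-132310069 (plus strand) within the noncoding gene Snhg12. At both of these some annotated transcripts have an exon over the snoRNA. U3 reads match Rnu3b1 at chr11:87443237-87443452 (plus strand) and other copies. U4 reads were placed on Gm24265 at chr5:115489459-115489599 (plus strand) and run 3 bases past the end of that model.

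The unlabelled sn/snoRNA reads are a small part of the RISC. They summed to 105 RPM (reads of a sequence scaled to a fixed library total), 136 RPM and 106 RPM in 2M replicates 1, 2 and 3, and to 132 RPM, 99.9 RPM and 139 RPM in 18M replicates 1, 2 and 3. The ages overlapped, and both held high and low libraries. These sums rest on 2202 to 3412 reads out of 19272046 to 25080484 reads recovered per library. As a share of the library they ranged from 0.00999% (18M replicate 2, 95% Wilson interval 0.00959% to 0.0104%) to 0.0139% (18M replicate 3, 0.0134% to 0.0144%). The spread between libraries of 1 age was therefore wider than counting error. The labelled sn/snoRNA sequences summed to 1344 to 1592 RPM, so that only 6.92% to 8.81% of all sn/snoRNA RPM lacked a miRNA label. As a check of the tissue, all 4 listed neuron miRNAs were read and summed to between 169763 RPM and 218255 RPM. The 4 listed miRNAs of microglia and immune cells were lower at 18M, with 2453 RPM to 2992 RPM against 3398 RPM to 3821 RPM at 2M. Over the 6 libraries the 4 listed miRNAs of epithelium summed to 27420 RPM to 45160 RPM and the 2 of oligodendrocytes to 4204 RPM to 7050 RPM. The 2 of erythrocytes summed to 1112 RPM to 3498 RPM and the 3 of muscle to 195 RPM to 355 RPM. The part of these cell types in the results was not tested. Some libraries hold U1 reads that differ from the mouse model at 1 base, described with U1 below, and the sums without them were 105 RPM, 123 RPM and 102 RPM at 2M and 132 RPM, 97.6 RPM and 139 RPM at 18M.

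A few RNAs gave nearly all of these reads. The 13 sources with a mean of at least 1 RPM over the 6 libraries made up 94.7% of the RPM, and the other 20 sources had a mean under 1 RPM. RPM values are not scaled to the length of the source RNA. By class, spliceosomal snRNAs gave 41.5% ± 2.68 (SD, n = 6 libraries) from 6 source names and H/ACA snoRNAs 39.4% ± 2.11 from 14. C/D box snoRNAs gave 9.28% ± 1.09 from 6 names, scaRNAs 7.48% ± 0.757 from 3, and U7 with entries of unknown class 2.34% ± 0.451 from 4. Of the 8.91 RPM of scaRNAs, Scarna3a gave 4.77 RPM and Scarna3b 3.88 RPM. Both are also miR-1843 loci, where most unlabelled RPM was a single substitution away from a labelled read, as described below. Spliceosomal and H/ACA reads did not differ in share beyond their spread.

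U1 snRNA, which pairs with the 5′ splice site, had the highest level in each library. It was read at 31.02 RPM, 44.6 RPM and 28.9 RPM in the 2M libraries and at 37.2 RPM, 33.4 RPM and 44.6 RPM in the 18M libraries. One library of each age was high, and the ages overlapped. Snora41 followed with 15.2 RPM, 24.99 RPM and 14.9 RPM at 2M and 15.8 RPM, 13.3 RPM and 23.03 RPM at 18M. It was high in 2M replicate 2 and 18M replicate 3, the libraries in which U1 was high. In 2M replicate 2, however, U1 was high only with the reads that differ from the model at 1 base. Without those reads U1 had 31.97 RPM there, beside 31.02 RPM in 2M replicate 1. Snora7a was read at 14.1 RPM, 7.98 RPM and 12.5 RPM at 2M and at 12.7 RPM, 11.8 RPM and 11.8 RPM at 18M, with its low value in 2M replicate 2.

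U3 snoRNA varied little, with 8.48 RPM, 11.6 RPM and 10.9 RPM at 2M and 11.3 RPM, 9.08 RPM and 9.86 RPM at 18M. U4 snRNA, which pairs with U6 before the spliceosome is activated, varied most among the 5 highest sources. It was read at 4.77 RPM, 10.7 RPM and 6.53 RPM at 2M and at 12.4 RPM, 4.31 RPM and 8.13 RPM at 18M. Within each age its highest library stood at over 2 times its lowest. Snora30 was read at 4.86 RPM, 5.14 RPM and 4.10 RPM at 2M and 6.17 RPM, 4.52 RPM and 5.30 RPM at 18M. Snora44 was read at 2.05 RPM, 2.79 RPM and 2.48 RPM at 2M and 4.46 RPM, 1.71 RPM and 4.71 RPM at 18M, where its lowest library lay below all those of 2M. The means of the remaining 6 sources above 1 RPM ran from 1.36 RPM (U5) to 5.38 RPM (Snora36b), in the order Snora36b, Scarna3a, Scarna3b, a second U1 entry (U1b), the Mir3068 snoRNA and U5. Neighbours in this order overlapped between libraries.

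**Figure D1:**
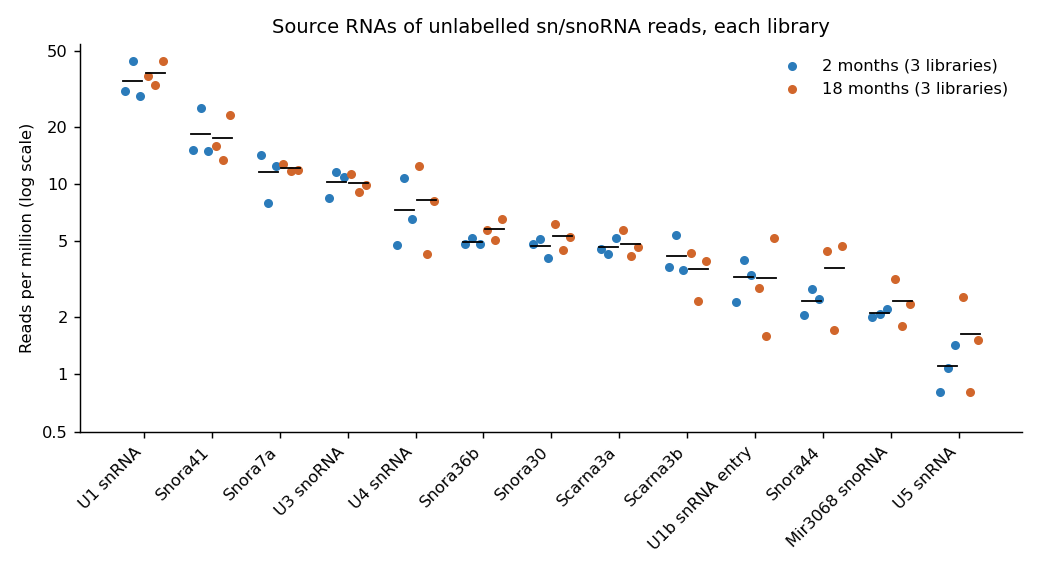
RPM (log scale) of the 13 source RNAs with a mean of at least 1 RPM, 1 point per library, with the 3 libraries of 2 months in blue and the 3 of 18 months in orange and a bar at each age's mean. The ages overlap for each of the 13 sources, and U1 lies between 28.9 and 44.6 RPM.

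Of the sources under 1 RPM, U6 (0.855 RPM), Snora2b (0.854 RPM), Snora20 (0.757 RPM), Snora62 (0.704 RPM) and the H/ACA-type RNA Gm26447 of the Eif4a2 gene (0.676 RPM) were seen in all 6 libraries. Next to U3, the C/D box snoRNAs were nearly absent from the reads listed as sn/snoRNA. The 266 sequences (45.9 RPM) listed under other kinds that match such models, described at the end, were not divided by class. Their C/D box part is therefore not known. Snord85 had a mean of 0.467 RPM, Snord116 0.126 RPM and Snord43 0.114 RPM. The imprinted clusters, strongly expressed in neurons, gave only traces among the reads listed as sn/snoRNA. A read of a second snoRNA of the Snhg14 locus, in the region of the Snord115 copies, had 0.0488 RPM and a snoRNA of the imprinted gene Rian 0.0450 RPM. Both were seen in only some of the libraries. The third scaRNA, Scarna8, had 0.255 RPM, U7 had 0.423 RPM, and a second U7 name had 0.0475 RPM. No read of the table matched the Scarna15 model exactly, and no vault, Y or 7SK RNA is among the 33 names. In the shallowest library 3 reads are 0.156 RPM, and the means of Snord116, Snord43, the second U7 name and the snoRNAs of Snhg14 and Rian lie below that.

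The main fragments of U1, U4 and U5 had a fixed 3′ end, and those of the highest H/ACA snoRNAs a fixed 5′ end. Reads were placed on the GENCODE models without gaps and with at most 2 mismatches, which succeeded for 573 of 583 sequences. In the 3′ group of U1 reads (31.6 RPM, 55 sequences), 95.6% ± 1.05 (SD, n = 6) of the RPM stopped at base 164, the last base of the model. Their most used start, base 147, held only 32.1% ± 7.33. All U4 reads (17 sequences) stopped at 1 base, while the most used start held 30.4% ± 19.3. All U5 reads of the 3′ group (10 sequences, 1.24 RPM) likewise stopped at the last base of the model, and their most used start held 25.5% ± 12.8. These reads form nested sets with a common 3′ end. Other spliceosomal reads did not. The internal U1 reads (5.01 RPM, 64 sequences) had their most used stop at 16.05% ± 12.3, and the U1b reads from the 5′ end (1.75 RPM) and from bases 127 to 151 (1.24 RPM) had theirs at 36.9% ± 25.8 and 37.5% ± 7.03.

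The highest H/ACA snoRNAs showed the opposite. In the 3′ arm of Snora41 (16.4 RPM, 16 sequences), 97.7% ± 1.49 of the RPM started at base 108 of 132, while the most used stop held 44.5% ± 2.98. In that of Snora30 (3.64 RPM), 100% started at base 107, and the most used stop held 29.2% ± 3.77. In that of Snora7a (8.46 RPM), 89.0% ± 2.46 started at base 115, and the most used stop held 43.4% ± 6.09. The 5′ arms were lower and also kept their starts: 81.8% ± 5.07 of the 1.43 RPM of Snora41, 78.8% ± 8.14 of the 3.35 RPM of Snora7a and 87.2% ± 6.83 of the 1.38 RPM of Snora30 began at 1 base. Snora44 gave a single fragment of 2.98 RPM, of which 89.3% ± 5.34 started at base 64. Among the low H/ACA sources Gm26447 (0.676 RPM) went the other way, with 75.0% ± 23.9 at its most used start and 90.2% ± 13.2 at its most used stop. These shares are descriptions of the placed reads, and the difference between the RNA classes was not tested.

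The main fragments of both arms face each other in the fold that RNAfold predicts for the whole model. For Snora41, 17 base pairs join the 5′ fragment (bases 67 to 88) to the 3′ fragment (108 to 129), which lie 19 bases apart. For Snora30 there were 13 such base pairs and for Snora7a 12. The 3′ arm was the more abundant in all 6 libraries for Snora41 (12.3 RPM to 23.1 RPM against 1.07 RPM to 1.87 RPM) and for Snora30 (2.77 RPM to 5.08 RPM against 1.09 RPM to 1.75 RPM). In Snora7a the 3′ arm had 10.3 RPM, 4.15 RPM and 9.24 RPM at 2M and 9.60 RPM, 8.49 RPM and 8.999 RPM at 18M. Its 5′ arm kept to between 2.79 RPM and 3.86 RPM. The low Snora7a value of 2M replicate 2 thus lay in the 3′ arm.

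U3 gave 3 fragments. The one at its 3′ end (bases 191 to 216, 4.48 RPM) had both a main start (73.9% ± 3.40) and a main stop (87.2% ± 3.06). An inner fragment at bases 76 to 96 (2.29 RPM) was as well defined, with 84.9% ± 1.85 at its main start and 86.9% ± 4.68 at its main stop. The third, at bases 42 to 68 (3.36 RPM), was more ragged.

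**Figure D2:**
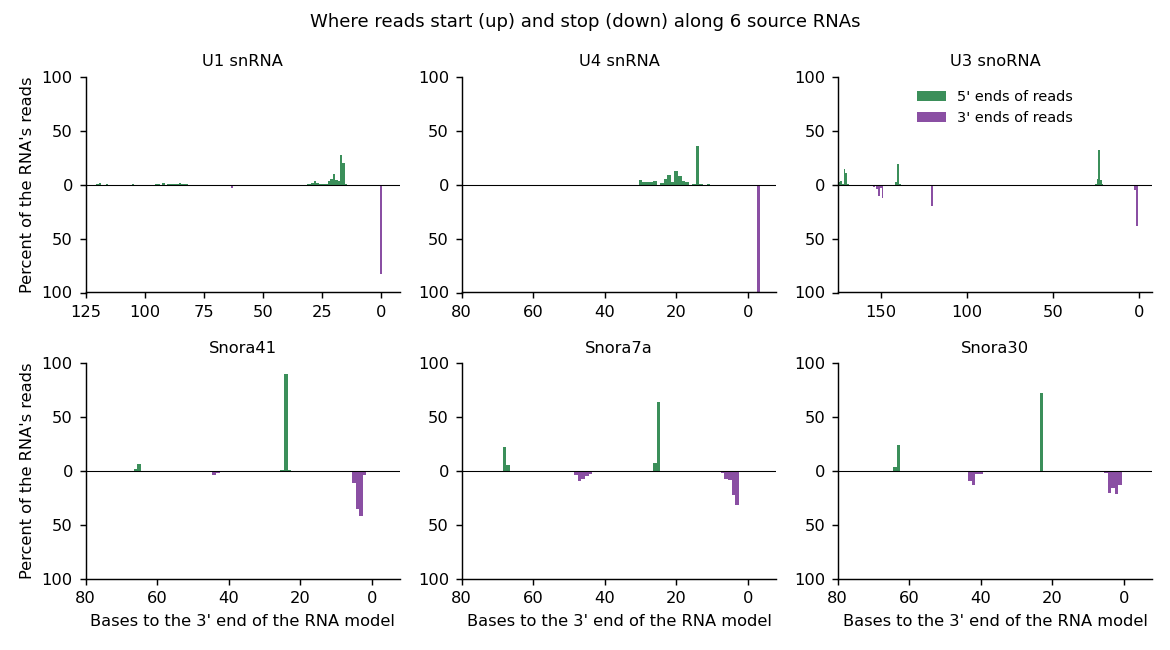
Percent of each RNA's reads (mean RPM of 6 libraries) that start (green, upward) or stop (purple, downward) at each distance in bases from the 3′ end of the GENCODE model, for U1, U4, U3, Snora41, Snora7a and Snora30. U4 shows a single stop and U1 a main one (82.6% of its RPM at the model's end), both with scattered starts, whereas Snora41, Snora7a and Snora30 show sharp starts and scattered stops on 2 arms, and negative distances lie beyond the model.

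The last base of a read is where most mismatches of the H/ACA reads lay. Without Snora36b, H/ACA reads together with Scarna8 matched their models in 88.2% ± 1.304 (SD, n = 6) of the RPM and differed only in the last base in 11.1% ± 1.60. In 9.39% ± 1.46 that last base was a T and in 1.503% ± 0.191 an A. C or G was found in 0.236% ± 0.228. U3 reads ended in such a T in 6.12% ± 1.44 of the RPM. Among spliceosomal snRNA reads the share with only a last-base mismatch was 3.10% ± 1.13, with 2.08% ± 0.928 in A and 1.02% ± 0.441 in T. A base beyond a model's end was never counted as a mismatch. All U4 reads and a few U1 reads run past that end, so this share is not comparable with that of H/ACA reads. Bases added to small RNAs after cutting are known to be mostly U and A, and how these arose was not tested.

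One mismatch of U1 varied between libraries of both ages. At base 157 of the Rnu1a1 model (counted from 1 at the 5′ end) 10 read sequences carried the substitution C157T. They made up 0 of 594 reads over this base in 2M replicate 1, which allows a share of up to 0.505%, and 0 of 866 reads in 18M replicate 3, which allows up to 0.346%. In 18M replicate 1 they made up 0.935% of the RPM over this base (6 reads), in 18M replicate 2 8.37% (54 reads), in 2M replicate 3 14.3% (72 reads) and in 2M replicate 2 34.8% (317 reads). Reads with T at base 157 matched no GENCODE sn/snoRNA model exactly. They were longer than the others, with 71.8% of their RPM at 21 to 23 nt and none at 17 or 18 nt, against 16.2% and 58.6% for the reads with C. Whether the annotation keeps reads of 17 or 18 nt with such an inner mismatch in the class was not tested. These lengths, and the shares per library above, therefore hold for reads listed in the class only. T is the base of human U1 at this place; where these reads came from was not tested. Without them U1 was read at 31.02 RPM, 31.97 RPM and 25.5 RPM at 2M and at 36.9 RPM, 31.05 RPM and 44.6 RPM at 18M, so that the high value of 2M replicate 2 was gone.

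**Figure D3:**
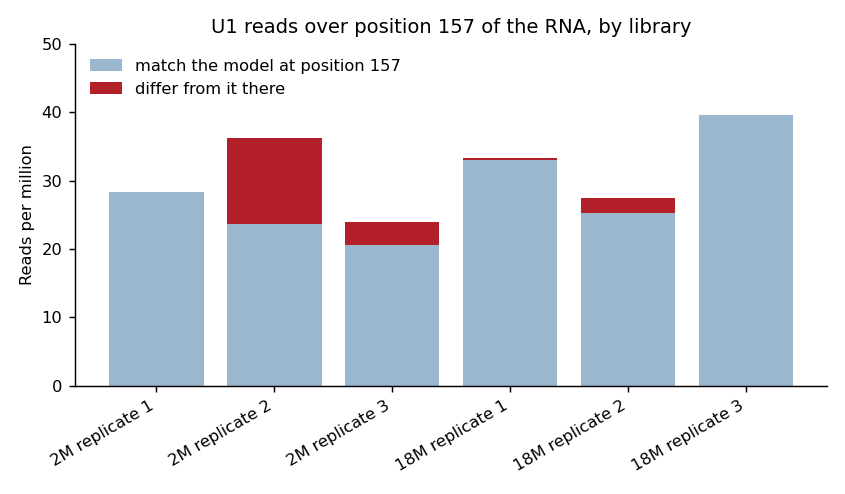
RPM of U1 reads over base 157 of the RNA in each library, split into reads that match the model there (light blue) and reads that differ (red). The differing reads reach 12.6 RPM in 2M replicate 2 and 3.43 RPM in 2M replicate 3, and are absent from 2M replicate 1 and 18M replicate 3.

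Of the sources, 4 are also the loci of annotated miRNAs: Snora36b (miR-664), Scarna3a (miR-1843b), Scarna3b (miR-1843a) and the Mir3068 snoRNA (miR-3068). Their labelled reads summed to 1434 RPM and their unlabelled reads to 16.3 RPM, or 1.12% of these loci (1.003% to 1.20% over the 6 libraries). The unlabelled reads were many and each rare, with 214 sequences of at most 0.349 RPM. Of these, 189 were a single substitution away from a labelled read of the same source, and they held 87.5% of the RPM. At Scarna3b, for example, the highest unlabelled read and a labelled one differ by T9C, counted from the 5′ end of the read:
miR-1843a-5p as labelled, 79.1 RPM: tATGGAGgtctctgtctgactt
Scarna3b without a label, 0.256 RPM: tATGGAGgcctctgtctgactt
At the Mir3068 snoRNA the corresponding substitution was C9T:
miR-3068-5p as labelled, 47.6 RPM: tTGGAGTtcatgcaagttctaacc
Mir3068 snoRNA without a label, 0.136 RPM: tTGGAGTttatgcaagttctaacc
In both pairs the seed is the same, and the unlabelled read had 0.324% and 0.286% of the RPM of the labelled one. The origin of the substitutions was not tested. Scarna3a and Scarna3b themselves were read at 4.19 RPM to 5.76 RPM and at 2.43 RPM to 5.39 RPM, and Snora36b at 4.82 RPM to 6.58 RPM.

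In length the sn/snoRNA reads differed from miRNA reads in each library, though not past the adjusted test. Of their RPM, 58.0% ± 3.85 (SD, n = 6 libraries) was 21 to 23 nt long, against 84.5% ± 0.579 for miRNA reads, a difference of -26.5 percentage points that was negative in 6 of 6 libraries (exact sign-flip permutation test, p = 0.031, the smallest this design allows). Adjusted over the 3 kinds compared, this p was 0.0938 and did not pass. With p already at its smallest, it could pass only if the tRNA or rRNA comparison also reached that p. The adjusted result therefore says nothing of the size of the difference from miRNA. Reads from tRNA had 53.5% ± 3.41 (difference of 4.50 points, adjusted exact p = 0.141) and reads from rRNA 57.5% ± 2.01 (difference of 0.496 points, adjusted exact p = 0.75). Neither difference was larger than its spread over libraries. Without U1, the differences were -12.5 points from miRNA, 18.5 from tRNA and 14.5 from rRNA, each with an adjusted exact p of 0.031. With a window of 19 to 24 nt in place of 21 to 23 nt, they were -24.9 points from miRNA, -5.86 from tRNA and -8.97 from rRNA (adjusted exact p = 0.031 for each), so that the direction against tRNA and rRNA depended on the window.

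The reads had 2 modes of length, which belonged to different RNAs. Reads of 17 or 18 nt made up 17.4% ± 2.66 of the sn/snoRNA RPM, against 0.139% ± 0.0164 of miRNA, 9.02% ± 1.26 of tRNA and 6.41% ± 0.444 of rRNA RPM. They lie below the range cut from the gel. No miRNA-labelled read of 15 to 17 nt was found in any library, and whether the label allows such lengths was not tested. A limit of the label and a trait of the reads cannot be told apart there. Among U1 reads the share of 17 or 18 nt was 46.5% ± 10.3 and varied from 33.96% in 2M replicate 2 to 61.9% in 2M replicate 1. Leaving out the reads with T at base 157 it ran from 42.2% to 61.9%. H/ACA reads without Snora36b had no read of 17 or 18 nt, and 82.9% ± 1.72 of their RPM was 21 to 23 nt long. C/D box reads, mainly U3, had 80.6% ± 2.79 in this range and spliceosomal snRNA reads 25.6% ± 6.29.

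**Figure D4:**
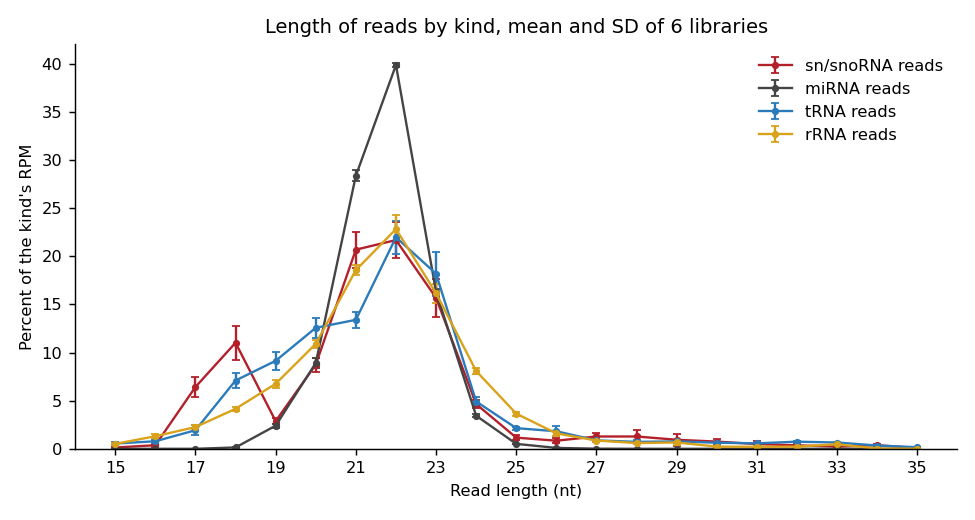
Percent of the RPM of each kind of read at each length in nt, as the mean of the 6 libraries with bars of 1 SD, for sn/snoRNA reads without a miRNA label, miRNA, tRNA and rRNA reads. The sn/snoRNA reads have a second mode at 17 and 18 nt (6.42% and 11.02%) beside the one at 21 to 23 nt, where miRNA reads are concentrated.

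Each 6mer seed carries a viability, the percent of cells alive after an siRNA with this seed was put into them, as the mean of 3 mouse cell lines. A seed under 40% is called toxic here. The RPM-weighted mean viability of the sn/snoRNA reads was 54.1% ± 1.77 (SD, n = 6), below that of miRNA reads (57.9% ± 0.263) in 6 of 6 libraries. The difference was -3.80 percentage points (exact sign-flip permutation test, adjusted p = 0.0469). From tRNA reads (62.4% ± 0.823) it was -8.25 points, also negative in 6 of 6 libraries (adjusted exact p = 0.0469). From rRNA reads (54.7% ± 0.527) it was -0.544 points, with an adjusted exact p of 0.469. The difference from miRNA reads rested on 1 snoRNA: without Snora41 it was 0.335 points (adjusted exact p = 0.625), and that from rRNA reads became 3.59 points (adjusted exact p = 0.0469). The negative differences held only for reads with no miRNA label: with the labelled sn/snoRNA reads added, the differences were 8.93 points from miRNA, 4.46 from tRNA and 12.2 from rRNA (adjusted exact p = 0.031 for each). The difference from rRNA reads passed as -2.47 points without U1 and as -3.44 points without the 4 sources at miRNA loci (adjusted exact p = 0.031 for both).

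Toxic seeds were carried by 27.8% ± 4.43 of the sn/snoRNA RPM. For miRNA reads this share was 13.1% ± 0.508, for tRNA reads 13.5% ± 0.974 and for rRNA reads 21.5% ± 1.12. Snora41 gave 48.2% of the toxic sn/snoRNA RPM, through the seed GAGGAU of its 3′ arm with a viability of 27.6%. U1 gave 14.5%, U4 10.8% and Snora30 10.8%. Leaving out Snora41, the toxic share was 16.9%. With the labelled sn/snoRNA reads added it was 10.1% (7.99% to 11.9% over the 6 libraries), below that of miRNA reads. The 3′ arms of Snora41 and Snora30 (AGCUGU, 37.9%) are below the limit, and that of Snora7a (GAUUGG, 42.9%) lies just above it. The 5′ arms of these 3 snoRNAs had main seeds of higher viability, with 61.1% for CUGUUA of Snora41, 67.2% for AGCAGA of Snora7a and 83.0% for ACCCUU of Snora30.

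**Figure D5:**
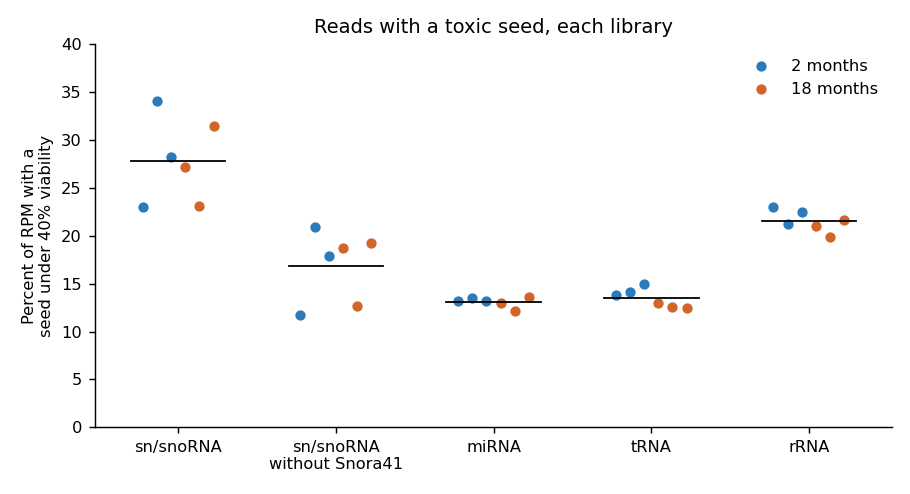
Percent of the RPM with a seed viability under 40% in each library (2 months in blue, 18 months in orange, bar at the mean of 6), for sn/snoRNA reads without a miRNA label, with and without Snora41, and for miRNA, tRNA and rRNA reads. The sn/snoRNA reads lie at 22.98% to 34.02%, above the miRNA reads at 12.2% to 13.6%, and their mean falls to 16.9% without Snora41.

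Because U1 and U4 reads vary in their 5′ end, a step of a single base changed the seed and its viability. The U1 read of 18 nt has the seed GUUCGC (57.4%) and that of 17 nt UUCGCG (80.6%), while the read of 29 nt has UGGGGG (9.30%). Over the 3′ group of U1 there were 19 seeds with viabilities from 9.30% to 80.6%. The 17 U4 reads had 17 seeds with viabilities from 4.50% to 92.0%. The toxic U4 read of 18 nt (AGUCUC, 14.5%) varied more than any other read named here, with 0.191 RPM, 5.14 RPM and 2.19 RPM at 2M and 5.14 RPM, 0.384 RPM and 3.79 RPM at 18M. It was low in 1 library of each age. The longer U4 read of 24 nt (UUUGAC, 69.3%) had 1.05 RPM, 0.558 RPM and 1.10 RPM at 2M and 1.92 RPM, 0.725 RPM and 0.685 RPM at 18M.

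The sn/snoRNA reads had 183 seeds, of which 144 also occurred on miRNA-labelled reads. Of the 6 highest seeds, 3 were found on no miRNA-labelled read. GAGGAU (Snora41), GUUCGC (U1) and GAUUGG (Snora7a) were these, with 16.1 RPM, 10.1 RPM and 7.56 RPM. The next, UUCGCG of U1 (7.26 RPM), occurred on 0.861 RPM of miRNA-labelled reads. AUGGAG (6.58 RPM, on Scarna3a, Scarna3b and Snora44) occurred on 449 RPM of them, mostly of miR-1843a-5p, and AUUCAU of Snora36b (4.29 RPM) on 443 RPM, mostly of miR-664-3p. AGCUGU of Snora30 occurred on 0.655 RPM of miRNA-labelled reads, against 3.64 RPM of sn/snoRNA reads. Some lower seeds were also those of abundant miRNAs. UUUUUG, on U4 and U5 reads with 0.726 RPM, is the seed of miR-129-5p (773 RPM), and GGCAAG of Snora62 (0.704 RPM) is that of miR-31-5p (671 RPM). UGGAGA of Snora44 (2.65 RPM) occurred on 5.50 RPM of miRNA-labelled reads, mostly of miR-185-5p. 

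No measure of these reads that was tested per library passed between the ages. The summed level was 116 ± 17.7 RPM (SD, n = 3) at 2M and 124 ± 20.8 RPM (SD, n = 3) at 18M (exact two-sided permutation test, p = 0.9). Without the U1 reads with T at base 157 the means were 110 RPM and 123 RPM (exact p = 0.4). With 3 libraries against 3, this test cannot go below 0.1. Mean viability was 54.0% ± 2.17 at 2M and 54.3% ± 1.74 at 18M (exact p = 0.8), and the toxic share was 28.4% ± 5.52 and 27.2% ± 4.17 (exact p = 0.8). Mean length was 21.5 nt at both ages, with an SD of 0.170 and 0.0334 (exact p = 0.9). Of the 5 class shares the largest difference was that of spliceosomal snRNAs, 40.6% ± 3.74 at 2M and 42.3% ± 1.32 at 18M (exact p = 0.5, 0.75 adjusted over the classes). The lowest exact p, that of scaRNAs, was 0.3, with 7.87% ± 0.591 and 7.09% ± 0.788 (0.75 adjusted). These scaRNA reads came mostly from the miRNA loci Scarna3a and Scarna3b.

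By source, 0 of the 13 RNAs with a mean of at least 1 RPM passed an adjusted p of 0.05 in limma on log2(RPM + 1), and 0 of 13 had an unadjusted p under 0.05. Over all 2127 source RNAs of the table tested together, 0.0940% passed the adjusted and 9.64% the unadjusted limit. No alternative fit, edgeR and DESeq2 included, gave an adjusted p under 0.05 for any of them. None of the 13 had ages that did not overlap, against 16.9% of all sources. Log2 changes from 2M to 18M ran from -0.19 ± 0.23 (SE) for Scarna3b to 0.36 ± 0.30 (SE) for Snora44, with a median of 0.12 beside -0.08 over all sources. U1 had 0.15 ± 0.21, Snora41 -0.07 ± 0.27, Snora7a 0.10 ± 0.21, U3 -0.02 ± 0.17 and U4 0.12 ± 0.39 (SE, adjusted p from 0.805 to 0.967). For Snora44, leaving out 18M replicate 2, which was low for it, gave the lowest unadjusted p of the 13 sources in any fit, 0.00657 (limma), with a log2 change of 0.70 and an adjusted p of 0.260.

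By read, 0 of the 20 sequences that reached a mean of 1 RPM passed an adjusted p of 0.05, against 0.123% of 16220 sequences in the table. Of the 20, 2 had an unadjusted p under 0.05 (10.8% in the table), and the same 2 were those whose ages did not overlap (17.1% in the table). The inner U3 read had 1.91 RPM, 2.35 RPM and 1.91 RPM at 2M and 1.45 RPM, 0.938 RPM and 1.42 RPM at 18M, lower in each library of 18M. Its log2 change was -0.43 ± 0.17 (SE) with an adjusted limma p of 0.410. A U1 read of 22 nt, which starts at base 143 (seed CUGCGU, 64.1%), had 0.905 RPM, 0.678 RPM and 1.48 RPM at 2M and 1.504 RPM, 1.83 RPM and 1.87 RPM at 18M, higher in each library of 18M. Its log2 change was 0.45 ± 0.19 (SE) with an adjusted limma p of 0.440. Both were named after their values were seen, and neither passed the correction. The highest reads of Snora41 and U1 had adjusted p-values of 0.992 and 0.677.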

How the data were processed

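The deposited table gives each read sequence in RPM per library, made by the authors with the SPOROS pipeline after trimming (Trim Galore, per the labels) and removal of rare reads. Versions were not given in the sources used here. The deposited seed viability, a percent of control that can exceed it, was handled as a score. RPM values were whole multiples of a single step (100% within 0.02 of a read), so whole reads were recovered. Intervals and floors of 3 reads cover counting error only.

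Sources and reads with a mean of at least 1 RPM were tested with limma 3.58.1 (R 4.3.3) on log2(RPM + 1), which understates changes of low features, with Benjamini-Hochberg adjustment over the whole table. edgeR 4.0.16 and DESeq2 1.42.0 on recovered reads, other pseudocounts, filters and scaling, a replicate block and leaving out each library were alternatives. Per-library measures used exact permutation tests (20 arrangements by age, 64 sign flips between kinds of read). The code was tested on simulated data. Reads were placed on 2944 GENCODE M21 models (GRCm38). Classes were assigned by hand, for 29 of the 33 sources from the 295 sequences found exactly. Folds came from RNAfold 2.7.2.

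Named sources were the 10 with the highest mean, the 3 highest of each class, any with an adjusted p under 0.05, and Scarna15. Named reads were the highest of each of the 10 sources, and any others were chosen after their values were seen. The members and lists were chosen with earlier results of these data known.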

Additional observations from a re-analysis of the deposited data

Results flagged for a closer look

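Reads that match an snRNA, snoRNA or scaRNA model of GENCODE exactly were also found outside the class described above, and the main comparisons did not use them. They entered only an alternative setting. They numbered 266 sequences with no miRNA label and a mean of 45.9 RPM, far above the floor of 3 reads. In the deposited annotation 183 of them (31.5 RPM) are listed as mRNA, 65 (12.5 RPM) as piRNA and 18 (1.90 RPM) under no kind. They summed to 44.1 ± 1.67 RPM (SD, n = 3) at 2M and 47.6 ± 3.52 RPM (SD, n = 3) at 18M. U2 snRNA, which pairs with the branch point of introns and has no source name among the 33, is one of them. Reads matching U2-type models numbered 66 and summed to 11.4 ± 1.20 RPM at 2M and 14.1 ± 2.78 RPM at 18M. Rnu12, the U12 snRNA of the minor spliceosome, gave 34 sequences with 5.74 ± 0.492 RPM at 2M and 5.72 ± 0.212 RPM at 18M.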

How the results depend on the processing

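Differences are 18M minus 2M, or sn/snoRNA minus the other kind, in percentage points unless stated, and the cause of a change was not tested. By age no alternative passed the test, but with 3 libraries against 3 no p under 0.1 is possible. Adding reads with a miRNA label turned mean viability to -0.710, the toxic share to 0.0298 and the H/ACA share to 2.33. For viability this setting gave that lowest p of 0.1 by permutation. Each 18M library (66.1% to 66.8%) then lay below each 2M library (67.1% to 67.4%). In this setting the unlabelled reads were only 6.92% to 8.81% of the RPM, so these values are mainly those of labelled reads. Reads of other kinds that match GENCODE turned viability to -0.0409, and leaving out Snora41 turned the toxic share to 0.0124. Without U1, mean length turned to 0.00535 nt and the H/ACA share to 0.455. Without U1 reads with T at base 157, mean length turned to 0.00271 nt. At 19 to 25 nt the H/ACA share turned to 1.45 and the spliceosomal share to -1.23. Leaving out each library gave -0.591 to 1.53 for viability, -3.93 to 1.59 for the toxic share, -0.107 to 0.0626 nt for length, -1.85 to 0.839 for the H/ACA share and 0.404 to 19.8 RPM for the summed level.

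Against other kinds, adding labelled reads turned the viability differences to 8.93 (miRNA), 4.46 (tRNA) and 12.2 (rRNA). That from rRNA passed at -2.47 without U1 and -3.44 without the 4 sources at miRNA loci, and turned to 3.59 without Snora41, as that from miRNA turned to 0.335. With a library left out the smallest p is 0.0625, and the differences from miRNA, tRNA and rRNA were -4.23 to -3.37, -8.77 to -7.70 and -1.11 to -0.164. The share of 21 to 23 nt, against miRNA, tRNA and rRNA in turn, passed with labelled reads (-6.69, 24.3, 20.3), without U1 (-12.5, 18.5, 14.5), with GENCODE-matching reads (-23.1, 7.84, 3.83) and, as 19 to 24 nt, passed with the last 2 turned (-24.9, -5.86, -8.97). The difference from miRNA could pass only where that from tRNA or rRNA also reached the smallest p. Against rRNA the share of 21 to 23 nt turned to -2.66 without the 4 sources. Leaving out each library it was -27.4 to -25.3, 3.05 to 5.89 and -0.489 to 1.19. The alternatives on Snora41, the 4 sources, GENCODE matches and T at base 157 were chosen after seeing the data.

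Small log2 changes turned sign. Snora41 had 0.0148 under median-of-ratios scaling and 0.0103 in DESeq2, U3 had 0.0578 and, in edgeR and DESeq2, 0.0338 and 0.0512, and U1b had 0.0305 in edgeR and 0.0507 in DESeq2. Leaving out each library gave -0.28 to 0.16 for Snora41, -0.13 to 0.25 for Snora7a, -0.144 to 0.0585 for U3, -0.20 to 0.47 for U4, -0.0616 to 0.13 for Scarna3a, -0.32 to 0.0023 for Scarna3b, -0.41 to 0.23 for U1b and -0.0202 to 0.27 for the Mir3068 snoRNA. Calls over the whole table ranged from 0 to 37 sources and 0 to 232 reads, the highest both in DESeq2. No sn/snoRNA source or read was among them, and no such read has a mean of 10 RPM, so that filter gave no value.

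Deviations of same-numbered libraries were not positively correlated, with -0.0861, -0.0786 and -0.145 over 2127 sources. Those of libraries with different numbers ran from -0.0376 to 0.154. With 3 libraries per age, each centred on the mean of its age, these correlations depend on each other. Whether same-numbered libraries shared their handling was not tested. With the replicate block, 0 of 13 sources and 0 of 20 reads passed, with 1 source and 0 reads in the whole table, and the difference in summed level was 7.96 RPM (exact p = 1, where 0.25 is the smallest possible).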
